A study of Mus musculus with 2 samples.

Results

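The Hippo pathway genes followed here are 10 of the 28693 genes in the count matrix: Yap1 and Wwtr1, which encode the transcriptional co-activators YAP and TAZ; Tead1, Tead2, Tead3 and Tead4, which encode their DNA-binding partners; Lats1 and Lats2, which encode the kinases that restrain them; and Ctgf and Cyr61, 2 of their target genes. The genes were matched by symbol, and all 10 had counts in both libraries. The symbol Tead2 stands at 2 identifiers in the matrix. Only the annotated protein-coding one, ENSMUSG00000030796, was used, and counts of the other are not included. The rule that chose them used no measured value. The cells came from pituitary glands of male C57BL/6 mice aged 7 weeks, with no treatment and no genetic change. Glands were pooled by 3 before digestion and each pool gave 1 library, so the 2 libraries are the whole replication. Every comparison below is between cell classes of the same glands.

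In the Hippo pathway a kinase cascade ends in LATS1 and LATS2, which phosphorylate YAP and TAZ and so keep them out of the nucleus. When the cascade is quiet, YAP and TAZ enter the nucleus, bind TEAD proteins and switch on genes such as Ctgf and Cyr61, whose products are secreted matricellular proteins. In the pituitary, YAP and TAZ are known for their part in the SOX2-positive stem cells of the gland. Activity of the pathway rests on phosphorylation and location of the proteins, which mRNA levels do not show.

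The libraries held 6546 and 7117 cell barcodes with 70813117 and 78861988 unique molecular identifiers (UMIs, each standing for 1 captured transcript). After filtering, 6011 and 6523 cells were used, of which 49 barcodes occurred in both libraries. Cells were clustered and named from marker genes as stem-like (184 and 185 cells), pituicyte-like (20 and 33), endothelial-like (133 and 159), fibroblast-like (71 and 85), macrophage-like (63 and 88) and cycling (113 and 118), and as 5 hormone classes. The hormone classes were somatotrope-like (3235 and 3202 cells), lactotrope-like (1442 and 1763), gonadotrope-like (255 and 271), corticotrope-like (200 and 246) and melanotrope-like (103 and 138). Each class had UMIs of every marker on its own list, among them all 9 stem cell markers in the stem-like class and all 7 pituicyte markers in the pituicyte-like class. This does not set classes apart, as the somatotrope-like class also had UMIs of all 9 stem cell markers. The stem cell markers summed to 6916 and 7159 CPM in the stem-like class, against 9.83 and 10.1 CPM in the somatotrope-like class. The stem-like class also carried gonadotrope markers at 3151 and 3459 CPM and thyrotrope markers at 7864 and 8782 CPM. The 6 pericyte markers summed to 1639 and 1858 CPM in the fibroblast-like class, against 458 and 527 CPM in the endothelial-like class. In the fibroblast-like class, 16 cells had more pericyte than fibroblast marker UMIs. In the cycling class, 75.2% and 79.7% of cells gave over 30% of their UMIs to Gh, the growth hormone gene of somatotropes.

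TEAD proteins are known to bind the letters GGAATG, or CATTCC on the other strand, and both were searched in the 250 bases before each start site of the RefSeq promoter table (GRCm38.p6). The table held 7 of the 10 genes, and 4 of these, Yap1, Wwtr1, Tead3 and Cyr61, had a match at 1 start site or more. Ctgf, Tead1 and Tead4 were not found in the table, so their promoters were not searched. Of all 27025 genes in the table, 14.4% had a match, and of all 32851 start sites, 12.6%. The promoters of the target Cyr61 and of both co-activators are printed 5′ to 3′ on the strand of the gene, since the results below turn on these 3 genes, with the match in capitals. That of Cyr61 lies at chr3:145649986-145650235 (minus strand), that of Yap1 at chr9:8004597-8004846 (minus strand) and that of Wwtr1 at chr3:57575911-57576160 (minus strand).
Cyr61: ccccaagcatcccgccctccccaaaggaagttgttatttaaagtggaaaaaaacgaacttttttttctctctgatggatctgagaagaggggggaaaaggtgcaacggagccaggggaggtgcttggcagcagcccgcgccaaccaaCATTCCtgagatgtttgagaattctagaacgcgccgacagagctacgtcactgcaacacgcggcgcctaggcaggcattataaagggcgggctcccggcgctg
Yap1: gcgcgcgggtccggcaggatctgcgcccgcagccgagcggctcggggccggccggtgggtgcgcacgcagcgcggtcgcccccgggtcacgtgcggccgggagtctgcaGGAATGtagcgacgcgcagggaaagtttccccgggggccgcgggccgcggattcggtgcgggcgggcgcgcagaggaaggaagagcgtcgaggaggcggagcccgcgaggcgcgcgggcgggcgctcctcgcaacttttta
Wwtr1: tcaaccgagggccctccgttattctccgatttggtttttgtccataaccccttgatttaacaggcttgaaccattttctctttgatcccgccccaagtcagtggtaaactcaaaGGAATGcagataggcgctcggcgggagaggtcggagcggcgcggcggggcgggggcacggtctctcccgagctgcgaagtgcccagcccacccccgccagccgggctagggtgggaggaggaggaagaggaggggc
The match begins 103 bases before the start of Cyr61, 141 before that of Yap1 and 136 before that of Wwtr1. A match is a string of letters and shows neither binding nor use of the site.

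The co-activators were found mainly outside the hormone cells, and the 2 genes had different leading classes. Levels are given in CPM, the UMIs of a gene scaled to the total of its class and library times a TMM normalization factor. In library 1 this factor ran from 0.541 in somatotrope-like to 1.62 in pituicyte-like cells, so orders of classes can differ from those by plain totals. Yap1 (ENSMUSG00000053110, chr9:7931999-8004596, mm10) was at 45.8 and 52.4 CPM in stem-like cells of libraries 1 and 2, from 297 UMIs. It was at 22.9 and 38.4 CPM in pituicyte-like cells (15 UMIs), 20.5 and 16.4 CPM in fibroblast-like cells (17 UMIs) and 19.3 and 17 CPM in endothelial-like cells (40 UMIs). The stem-like values lay above those of every other class in both libraries, and fibroblast-like and endothelial-like values overlapped. The 5 hormone classes together gave 40 Yap1 UMIs and a mean of 0.757 CPM, so the stem-like mean was 64.8-fold higher. Macrophage-like cells had 0 Yap1 UMIs.

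Wwtr1 (ENSMUSG00000027803, chr3:57455649-57575910) was highest in endothelial-like cells, at 59.9 and 59.2 CPM from 132 UMIs. Fibroblast-like cells had 47.8 and 38.9 CPM (40 UMIs) and stem-like cells 22.1 and 27.9 CPM (151 UMIs). None of these 3 classes overlapped with the next. Yap1 made up 67.5% and 65.3% of the summed Yap1 and Wwtr1 UMIs in stem-like cells, with exact 95% binomial intervals of 60.6 to 73.8% and 58.9 to 71.3%. In endothelial-like cells it made up 24.4% (15.3 to 35.4%) and 22.3% (14.4 to 32.1%), and in fibroblast-like cells 30% and 29.6%. With 3′ tags a UMI stands for a transcript end of any length, so these shares carry no length scaling, and the intervals cover counting error only. The balance between the 2 co-activator genes thus leaned to Yap1 in stem-like cells and to Wwtr1 in endothelial-like and fibroblast-like cells in both libraries.

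Among hormone cells, Wwtr1 was found above all in melanotrope-like cells, the Pomc cells of the intermediate lobe. Their level was 9.99 and 15.4 CPM, from 7 and 14 UMIs, against 2.40 and 4.89 CPM in corticotrope-like cells and at most 1.60 CPM in somatotrope-like, lactotrope-like and gonadotrope-like cells. Melanotrope-like values lay above those of every other hormone class in both libraries. Against the mean of the other hormone classes, taken on the log scale, Wwtr1 was higher by a log2 fold change of 3.90 ± 0.50 (SE, edgeR's quasi-likelihood test, adjusted p = 6.4e-10). The share of cells with a Wwtr1 UMI was 6.80% and 8.70% of melanotrope-like cells, and 3.17% and 1.14% of macrophage-like cells. It was 0.277% and 0.170% of lactotrope-like cells, the lower of these 2 classes. Median UMIs per cell were 6778 and 6553 in melanotrope-like, 4701 and 4128 in macrophage-like and 8076 and 8644 in lactotrope-like cells. Markers of other Wwtr1-bearing classes were low there: the 10 endothelial markers summed to 8.40 and 6.34 CPM (of plain UMI totals, as for all marker sums), with Pecam1, Kdr, Flt1, Cldn5 and Tie1 at 0. The 8 fibroblast markers summed to 6.00 and 9.05 CPM, with Col3a1, Pdgfra, Ogn and Fbln1 at 0, and the 9 stem cell markers to 38.4 and 38.9 CPM. The same sum was 6916 and 7159 CPM in stem-like cells.

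**Figure D1:**
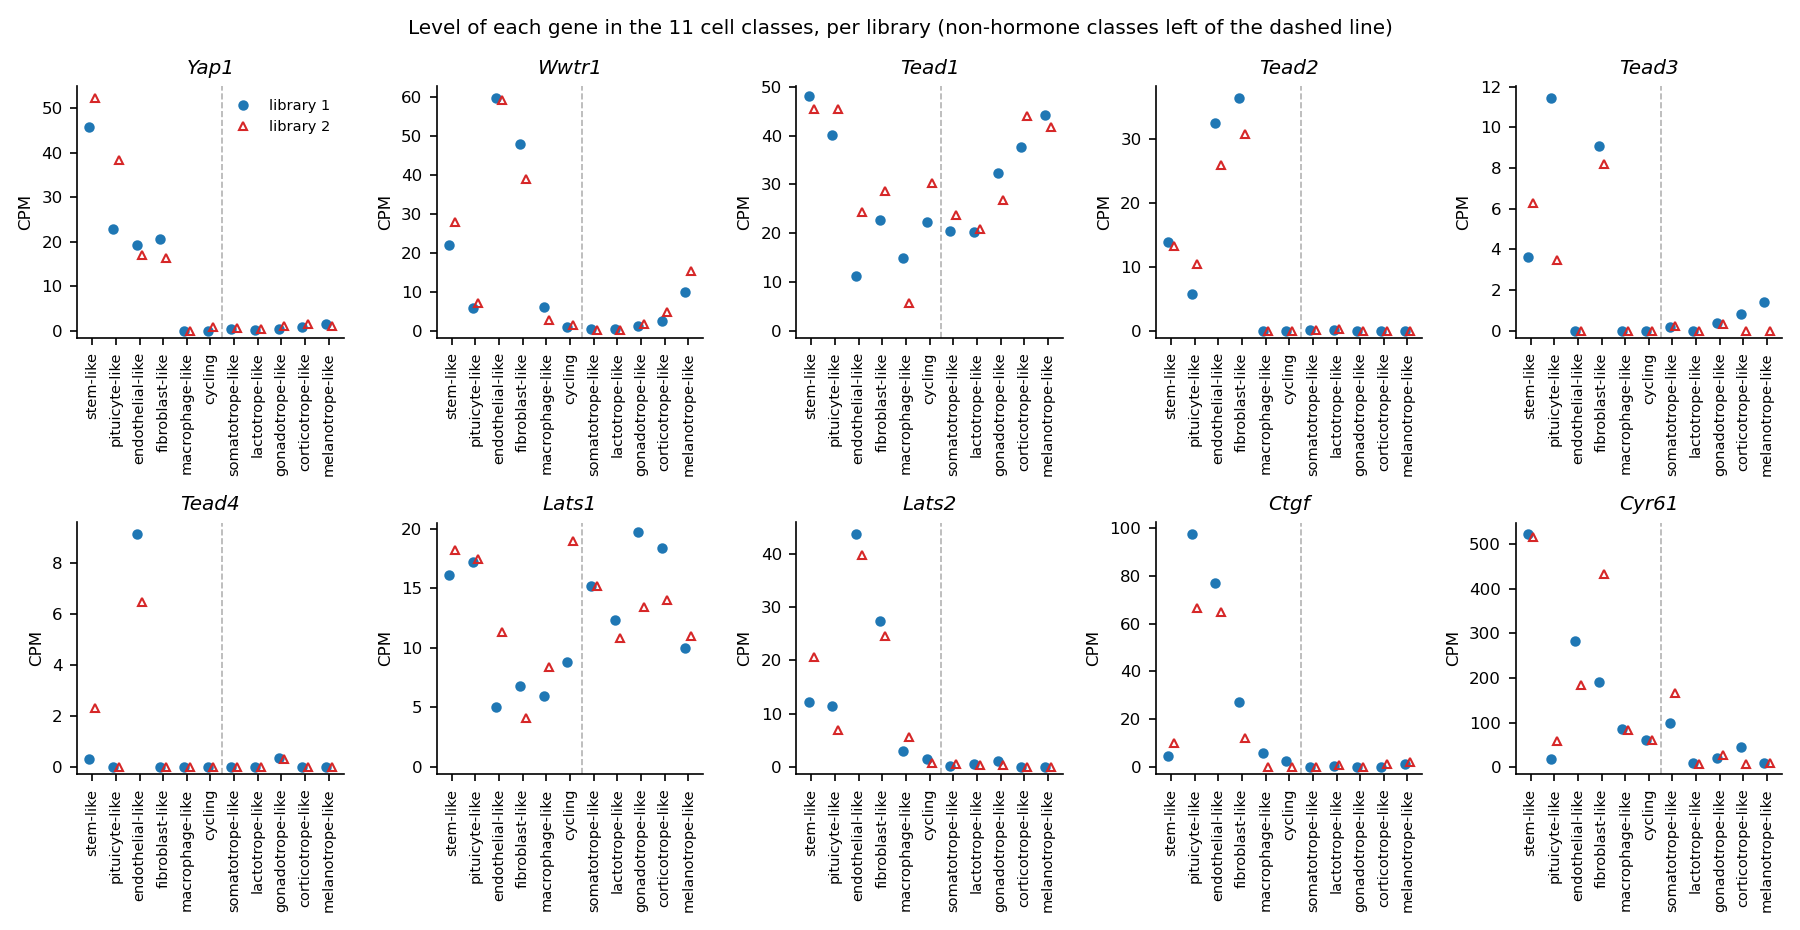
Level of each of the 10 genes in CPM (linear axis, own scale per gene) in 11 cell classes; the circle is library 1 and the triangle library 2, and non-hormone classes stand left of the dashed line. Yap1 peaks in stem-like cells (45.8 and 52.4 CPM), Wwtr1 in endothelial-like cells (59.9 and 59.2 CPM), and Tead1 and Lats1 have counts in every class.

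Of the 4 TEAD genes, 1 was broad and 3 were restricted. Tead1 (ENSMUSG00000055320, chr7:112679318-112906807) had UMIs in every class. It was at 48.1 and 45.4 CPM in stem-like cells and at 44.2 and 41.8 CPM in melanotrope-like, 37.6 and 44.1 CPM in corticotrope-like and 20.4 and 23.7 CPM in somatotrope-like cells. The lowest mean, from 14.8 and 5.58 CPM, was that of macrophage-like cells, with 5 and 2 UMIs, and it overlapped with that of endothelial-like cells. Tead1 was thus present where Yap1 and Wwtr1 were nearly absent: it made up 98.9% and 98.8% of all Tead UMIs in somatotrope-like cells, and 73.0% and 67.5% in stem-like cells.

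Tead2 (ENSMUSG00000030796, chr7:45215753-45233644) was at 36.4 and 30.7 CPM in fibroblast-like, 32.5 and 25.9 CPM in endothelial-like and 13.8 and 13.3 CPM in stem-like cells. Pituicyte-like cells had 5.73 and 10.5 CPM, from 1 and 3 UMIs. The hormone classes held 7 Tead2 UMIs in all, and macrophage-like and cycling cells 0. Tead2 was therefore counted in the same 4 classes that held Yap1, with an order of levels closer to that of Wwtr1. Tead3 (ENSMUSG00000002249, chr17:28331671-28350817) was at 9.11 and 8.20 CPM in fibroblast-like cells (8 UMIs), 11.5 and 3.49 CPM in pituicyte-like cells (3 UMIs) and 3.62 and 6.30 CPM in stem-like cells (30 UMIs), and endothelial-like cells had 0 UMIs. Tead4 (ENSMUSG00000030353, chr6:128224288-128300823) was at 9.13 and 6.48 CPM in endothelial-like cells, from 17 UMIs, and at 0.329 and 2.32 CPM in stem-like cells, from 8. It did not pass the filter on low counts and was not tested. Endothelial-like cells thus had Tead4 without Tead3 UMIs, and fibroblast-like cells had Tead3 without Tead4 UMIs. A count of 0 allows up to 3 UMIs per library, so low levels of either gene were not detectable there.

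The 2 kinase genes differed from each other in the same way. Lats1 (ENSMUSG00000040021, chr10:7681214-7716460) ranged from 4.10 to 19.7 CPM over all classes and libraries. Its classes overlapped with the next in order from the highest, pituicyte-like cells, to the lowest, fibroblast-like cells. Lats2 (ENSMUSG00000021959, chr14:57689662-57758388) was at 43.6 and 39.7 CPM in endothelial-like cells, 27.3 and 24.6 CPM in fibroblast-like cells and 12.2 and 20.6 CPM in stem-like cells. It had 33 UMIs in the hormone classes together and 0 in corticotrope-like and melanotrope-like cells. Lats2, which is itself known as a YAP and TAZ target in human cell lines, was thus highest in endothelial-like, fibroblast-like and stem-like cells, the 3 classes with the most Wwtr1, and Lats1 had UMIs in every class. Melanotrope-like cells, next in Wwtr1, had no Lats2 UMI.

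The targets Ctgf and Cyr61 separated from each other. Ctgf (ENSMUSG00000019997, chr10:24595442-24598683) was highest in pituicyte-like cells, at 97.5 and 66.4 CPM (36 UMIs), and in endothelial-like cells, at 77.1 and 64.8 CPM (156 UMIs), and these 2 classes overlapped. Fibroblast-like cells had 27.3 and 12.3 CPM, and stem-like cells, which had the most Yap1, had 4.61 and 9.95 CPM. Of the 30 stem-like Ctgf UMIs in library 2, 15 came from 1 cell. The hormone classes had 26 Ctgf UMIs and a mean of 0.656 CPM, and gonadotrope-like cells had 0. The stem-like mean was 11.1-fold and the pituicyte-like mean 125-fold the hormone mean, the last with 223-fold in library 1 and 75.9-fold in library 2.

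Cyr61 (ENSMUSG00000028195, chr3:145646976-145649981) was highest in stem-like cells, at 523 and 516 CPM from 3145 UMIs. Fibroblast-like cells had 191 and 433 CPM, endothelial-like cells 283 and 183 CPM, and pituicyte-like cells 17.2 and 59.4 CPM. Of the hormone classes, somatotrope-like cells stood out with 98.4 and 166 CPM from 6109 UMIs. Lactotrope-like cells had 8.83 and 6.21 CPM, melanotrope-like cells 8.56 and 8.80 CPM, gonadotrope-like cells 20.8 and 28.1 CPM and corticotrope-like cells 45.6 and 7.69 CPM. In corticotrope-like cells of library 1, 57 UMIs came from 7 cells, 25 of them from 1 cell. By plain UMI totals, Cyr61 was at 53.3 and 91.0 CPM in somatotrope-like cells and at 59.6 and 9.92 CPM in corticotrope-like cells. Their order in library 1 thus depends on the scaling. Stem-like values were above, and somatotrope-like values were below, those of endothelial-like and fibroblast-like cells in both libraries.

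Ctgf made up 85.0% and 52.8% of the summed Ctgf and Cyr61 UMIs in pituicyte-like cells, with intervals of 62.1 to 96.8% and 35.5 to 69.6%. It made up 21.4% and 26.1% in endothelial-like cells, 0.873% and 1.89% in stem-like cells and 0.181% and 0.0512% in somatotrope-like cells. The intervals of pituicyte-like cells lay above those of endothelial-like cells, and these above those of stem-like cells, in both libraries. Summed target UMIs per summed Yap1 and Wwtr1 UMI were 7.78 and 6.55 in stem-like cells, 3.20 and 8.04 in fibroblast-like cells, 4.55 and 3.26 in endothelial-like cells, and 4.00 and 2.77 in pituicyte-like cells. Stem-like and fibroblast-like ratios overlapped. In somatotrope-like cells, which had 10 and 16 Yap1 UMIs and 8 and 6 Wwtr1 UMIs, the ratio was 123 and 178. It was also high in cycling cells, at 80 and 26.7, and in macrophage-like cells, at 15.5 and 30, each from at most 3 co-activator UMIs per library. In melanotrope-like cells it was 0.875 and 0.667. Somatotrope-like, cycling and macrophage-like cells thus held Cyr61 with next to no co-activator mRNA, and melanotrope-like cells held Wwtr1 with little mRNA of either target. Whether the Cyr61 of the cycling class is separate from that of the somatotrope-like class was not tested. Cycling cells with over 30% Gh UMIs, 75.2% and 79.7% of that class, gave 69 of its 77 Cyr61 UMIs in library 1 and 76 of 80 in library 2.

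Over the 11 classes, log2(CPM + 1) of Ctgf followed that of Yap1 with Pearson's r of 0.83 (0.75 and 0.89 within libraries 1 and 2), and Cyr61 followed Yap1 with 0.62 (0.54 and 0.62). The 11 points share 2 libraries and fall into 4 classes with Yap1 and 7 nearly without, so r describes mostly that split. Among the 4 classes with Yap1, the class with the most Yap1 had the least Ctgf in both libraries. Tead2 followed Yap1 with r of 0.92, Lats2 with 0.83, Tead1 with 0.42 and Lats1 with -0.02, and Cyr61 followed Ctgf with 0.46.

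**Figure D2:**
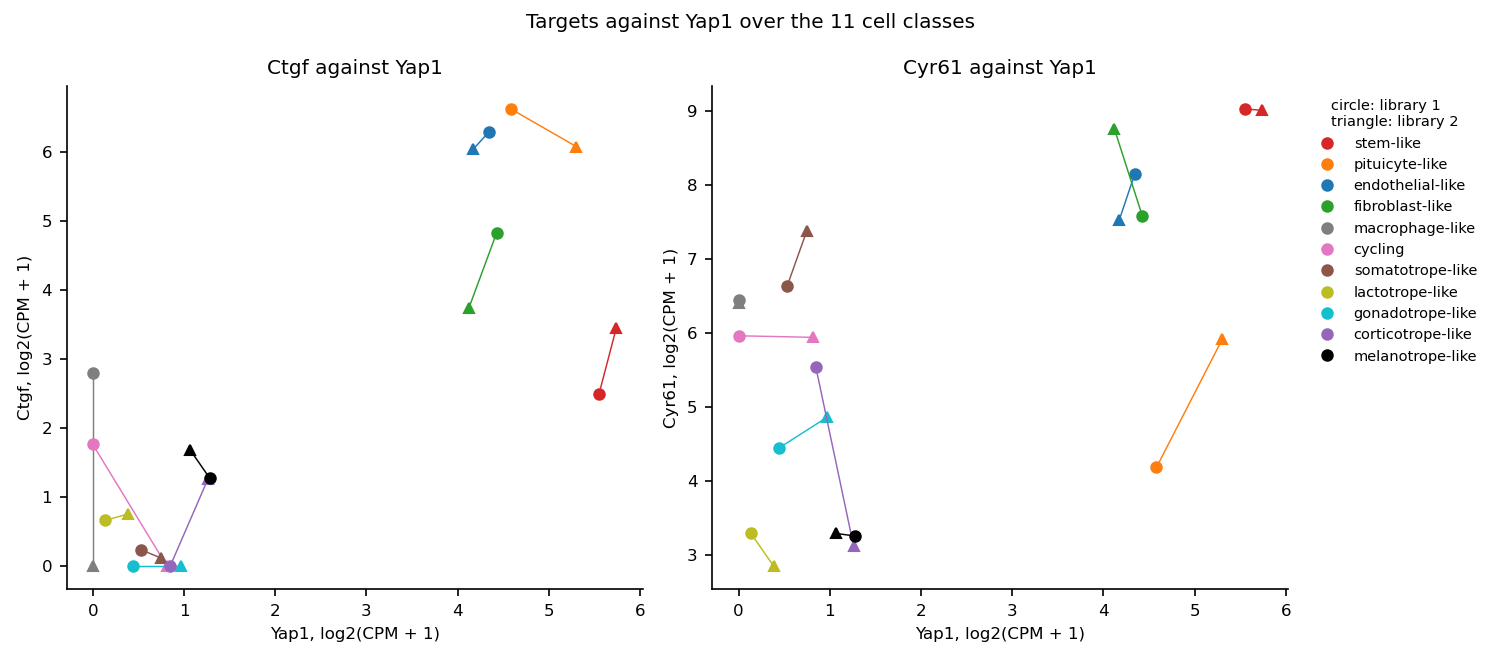
Ctgf (left) and Cyr61 (right) against Yap1, all as log2(CPM + 1), for 11 classes; circles are library 1, triangles library 2, and a line joins the libraries of a class. Stem-like cells have the most Yap1 and Cyr61 but 4.61 and 9.95 CPM of Ctgf; somatotrope-like cells have 98.4 and 166 CPM of Cyr61 and under 1 CPM of Yap1.

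Class differences were tested on UMI sums per class and library with edgeR's quasi-likelihood test, with adjustment over all 12249 genes tested, and called at an adjusted p under 0.05. Of the 10 genes 9 were tested. The fit averages classes on the log scale, so a fitted change differs from a ratio of mean CPM where the averaged classes are unequal. For Wwtr1 and Cyr61 in stem-like cells the ratios of mean CPM were 6.82 and 13.0, smaller than the fitted changes given below. In stem-like cells over the mean of the hormone classes, 8 of the 9 were higher and none was lower, where 31.4% of all genes tested were called higher and 57.8% in either direction. Yap1 was higher by a log2 fold change of 6.18 ± 0.22 (SE, adjusted p = 2.2e-43), Wwtr1 by 4.07 ± 0.23 (adjusted p = 3.0e-29), Cyr61 by 4.56 ± 0.29 (adjusted p = 8.0e-08) and Tead1 by 0.65 ± 0.12 (adjusted p = 2.9e-06). Tead2, Tead3, Lats2 and Ctgf were also higher, but each has a hormone class at 0 UMIs, so their fitted fold changes depend on the prior count and are not given. Lats1 was at 0.32 ± 0.19 (adjusted p = 0.14). By the ratio of mean CPM, Tead2 was 297-fold the hormone mean in stem-like cells (488-fold in library 1, 211-fold in library 2). Lats2 was 53.7-fold the hormone mean (33.3-fold and 84.3-fold) and Tead3 15.1-fold (6.55-fold and 59.3-fold), so all 3 ratios rest on few hormone cell UMIs and differ widely between libraries.

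Endothelial-like cells had 6 of 9 genes higher and 1 lower than the hormone classes, where 28.8% and 27.8% of all genes were. Wwtr1 was higher by 5.31 ± 0.25 and Yap1 by 4.72 ± 0.42 (adjusted p = 2.4e-35 and 1.4e-17). Cyr61 was higher by 3.39 ± 0.40, and Tead2, Lats2 and Ctgf were the other 3. Tead1 was lower at -0.70 ± 0.23 (edgeR adjusted p = 0.0060), with a fitted value of -1.40 from library 1 alone and -0.30 from library 2 alone.

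Fibroblast-like cells had 7 of 9 genes higher, against 20.1% of all genes (37.2% in either direction), and none lower: both co-activators, Tead2, Tead3, Lats2 and both targets. Their Yap1 value was 4.75 ± 0.60 (5.38 from library 1 alone) and their Wwtr1 value 4.86 ± 0.39. Cyr61 was higher by 3.83 ± 0.48, with 3.03 from library 1 alone and 4.57 from library 2 alone. In the 140 cells with more fibroblast than pericyte marker UMIs, 15 Yap1, 36 Wwtr1 and 287 Cyr61 UMIs remained.

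Pituicytes are glia of the neurohypophysis. The pituicyte-like class had 5 of 9 genes higher, against 10.6% of all genes (21.5% in either direction), and none lower: Yap1 at 5.56 ± 0.66, and Tead2, Tead3, Lats2 and Ctgf. Cyr61 was at 0.95 ± 1.24 (adjusted p = 0.69) and Wwtr1 at 2.12 ± 1.08 (adjusted p = 0.17), both with few UMIs in 53 cells. By the ratio of mean CPM, Cyr61 was 0.961-fold the hormone mean there. Macrophage-like cells had Lats2 higher, from 3 UMIs, and Tead1 lower at -1.56 ± 0.46 (-0.99 and -2.42 from libraries 1 and 2 alone), where 17.7% of all genes were higher, 12.8% lower and 30.5% called in either direction. DESeq2 called 4 genes there, 3 of them higher. The share of all genes that DESeq2 called was not counted, so its counts here and below stand without it. In cycling cells edgeR called 0 of 9 genes, where it called 36.3% of all genes in either direction. Cyr61, at 61.5 and 60.6 CPM in cycling cells, was at 1.46 ± 0.55 (edgeR adjusted p = 0.064). It was the 1 gene of the 9 with an unadjusted edgeR p under 0.05 there, and DESeq2 called 1 gene.

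**Figure D3:**
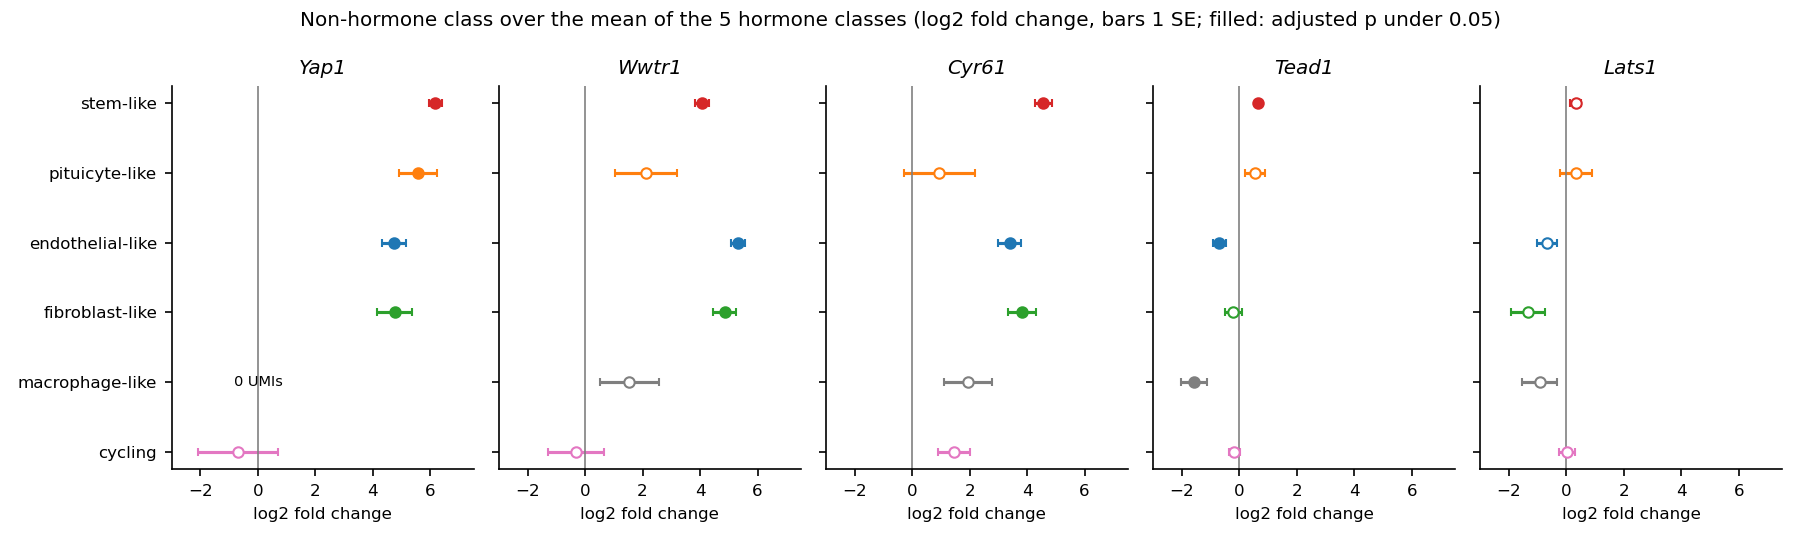
Log2 fold change of each non-hormone class over the mean, taken on the log scale, of the 5 hormone classes for the 5 genes with UMIs in every hormone class; points are edgeR estimates, bars 1 SE, filled points have an adjusted p under 0.05. Yap1, Wwtr1 and Cyr61 are filled and right of 0 in stem-like, endothelial-like and fibroblast-like cells, and Tead1 is filled right of 0 in stem-like cells and left of 0 in endothelial-like and macrophage-like cells.

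Set directly against each other, the classes that hold the pathway genes differed in all 9 genes in 1 case. In stem-like over endothelial-like cells, 5 genes were higher and 4 lower, where 24.0% and 22.2% of all genes were, or 46.2% in either direction. Yap1 was higher by 1.45 ± 0.25 and Tead1 by 1.35 ± 0.24 (2.10 and 0.90 from libraries 1 and 2 alone). Lats1 was higher by 1.0 ± 0.36 (1.66 from library 1 alone), Tead3 was higher against 0 UMIs, and Cyr61 was higher by 1.17 ± 0.38 (edgeR adjusted p = 0.027). The Cyr61 call was lost with DESeq2 (adjusted p = 0.089) and with doublet calls kept (adjusted p = 0.068). Lower were Ctgf at -3.27 ± 0.32 (-4.05 and -2.70 from libraries 1 and 2 alone), Lats2 at -1.35 ± 0.30 (-1.84 and -0.95), Wwtr1 at -1.25 ± 0.21 and Tead2 at -1.10 ± 0.33. The 2 targets and the 2 co-activators thus each went opposite ways between stem-like and endothelial-like cells.

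In stem-like over fibroblast-like cells, 3 genes were higher and 3 lower, where 15.1% and 13.7% of all genes were. Yap1 was higher by 1.42 ± 0.35 (edgeR adjusted p = 0.00060) and Tead2 lower at -1.30 ± 0.41 (adjusted p = 0.0095). Ctgf was lower at -1.41 ± 0.53, but its value was -2.56 from library 1 alone and -0.31 from library 2 alone. Wwtr1 was lower at -0.79 ± 0.30 and was not called without the filter, at Leiden resolution 2 or with doublet calls kept. Tead1, higher by 0.86 ± 0.30, and Lats1, higher by 1.67 ± 0.58, were not called with DESeq2, nor was Lats1 with doublet calls kept (adjusted p = 0.052). Cyr61, at 0.73 ± 0.42 (adjusted p = 0.24), was not called, although its stem-like values lay above the fibroblast-like ones. In stem-like over pituicyte-like cells, 2 genes were higher and 1 lower, where 11.4% and 7.08% of all genes were. Cyr61 was higher by 3.61 ± 0.80 (adjusted p = 0.0084) and Ctgf lower at -3.44 ± 0.45 (adjusted p = 2.2e-09), with Cyr61 at 4.92 from library 1 alone and Ctgf at -4.39 and -2.73 from libraries 1 and 2 alone. Wwtr1 was higher by 1.95 ± 0.71 and was not called with DESeq2 or RLE factors.

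The hormone classes were each compared with the mean of the other 4. Somatotrope-like cells had Cyr61 higher by 3.21 ± 0.35 (edgeR adjusted p = 1.4e-05), with 2.59 from library 1 alone and 3.99 from library 2 alone. This was 1 gene of 9, where 26.0% of all genes were called higher. Wwtr1 at -2.70 ± 0.44 and Tead1 at -0.54 ± 0.11 were lower, where 19.4% of all genes were (-2.24 from library 1 alone for Wwtr1). Lactotrope-like cells had 5 genes lower, where 17.9% of all genes were, and none higher, where 23.2% were (41.1% in either direction). These were Wwtr1 at -2.73 ± 0.50 (-2.10 and -3.24 from libraries 1 and 2 alone), Yap1 at -1.87 ± 0.70, Cyr61 at -1.97 ± 0.67, Tead1 at -0.67 ± 0.12 and Tead3, which had 0 UMIs there. The Cyr61 call was lost without the filter on low counts (adjusted p = 0.061), and the Tead3 call at Leiden resolution 2 (adjusted p = 0.072).

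Corticotrope-like cells had Tead1 higher by 0.57 ± 0.17 and Wwtr1 by 1.66 ± 0.59 (1.07 from library 1 alone), 2 of 9 genes, where 15.7% of all genes were higher. Melanotrope-like cells had 2 of 9 higher, where 10.8% of all genes were (8.18% lower, 18.9% in either direction), namely Wwtr1, given above, and Tead1 at 0.65 ± 0.20 (adjusted p = 0.013). DESeq2 called 3 genes higher and 1 lower in melanotrope-like cells. In gonadotrope-like cells edgeR called 0 of 9 genes, where it called 35.8% of all genes in either direction. There 1 gene, Ctgf with 0 UMIs, had an unadjusted edgeR p under 0.05, and DESeq2 called 0. In these fits, which average the other classes on the log scale, both Pomc-producing classes thus had Wwtr1 and Tead1 above the other hormone classes. Mean Wwtr1 in corticotrope-like cells, 3.65 CPM, lay above that of somatotrope-like, lactotrope-like and gonadotrope-like cells. It lay below the 12.7 CPM of melanotrope-like cells, so it was not above a plain mean of CPM.

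Much of the Cyr61 RNA came from a small part of the cells. It had a UMI in 53.3% and 56.8% of stem-like cells, and the 10% of cells with the most held 66.9% and 55.8% of its UMIs, with up to 105 and 106 in a cell. In somatotrope-like cells 18.8% and 25.05% of cells had a UMI, the top 10% held 87.1% and 82.6% of the UMIs, and the maximum was 53 and 62. Over both libraries the share was 55.0 ± 2.5% in stem-like, 21.9 ± 4.4% in somatotrope-like, 3.35 ± 0.23% in lactotrope-like and 8.51 ± 0.82% in macrophage-like cells (SD, n = 2). Median UMIs per cell were 9209 and 9673 in stem-like, 12755 and 13655 in somatotrope-like, 8076 and 8644 in lactotrope-like and 4701 and 4128 in macrophage-like cells. After thinning each cell to 1000 UMIs the share was 30.9 ± 4.5% in stem-like, 5.44 ± 1.97% in somatotrope-like, 0.608 ± 0.219% in lactotrope-like and 5.45 ± 1.28% in macrophage-like cells.

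Free RNA in the droplets can give UMIs to cells that do not make a transcript. The lactotrope-like share is the lowest of these 4 classes, so the other shares lie above it by that choice. The planned background was the macrophage-like class, and at 1000 UMIs its share given above was like that of somatotrope-like cells. How much free RNA adds to the somatotrope-like share was not tested. Somatotrope-like cells spend much of their depth on Gh. Thinned to 1000 UMIs outside the hormone genes, the share was 9.51 ± 3.01% in somatotrope-like, 0.694 ± 0.100% in lactotrope-like and 5.5 ± 1.35% in macrophage-like cells. The macrophage-like class itself carried somatotrope markers at 211070 and 115515 CPM, and its 29 and 30 Cyr61 UMIs came from 5 and 8 cells, with up to 14 and 8 in a cell. The part of free RNA in its Cyr61 of 86.1 and 83.6 CPM was not tested.

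Yap1 had a UMI in 45.8 ± 6.3% of stem-like cells and in 0.404 ± 0.135% of somatotrope-like cells (SD, n = 2). It had none in the 63 and 88 macrophage-like cells. Thinned to 1000 UMIs the stem-like share was 5.96 ± 0.79%. Wwtr1 had a UMI in 33.1 ± 2.1% of endothelial-like cells, and 7.22 ± 0.42% after thinning. Ctgf had a UMI in 36.2 ± 8.8% of pituicyte-like, 27.2 ± 3.4% of endothelial-like and 5.42 ± 0.79% of stem-like cells. In thinned stem-like cells, Cyr61 was found in 25% and 43.8% of cells with a Yap1 or Wwtr1 UMI, from 20 and 16 cells, and in 28.0% and 33.1% of cells without. Without thinning the shares were 61.6% and 61.8% of cells with such a UMI and 43.5% and 49.3% of cells without, with median depths of 10536 and 12648 UMIs with and 6753 and 7024 without. With so few thinned cells, and depth moving with the unthinned split, these shares are given as a description.

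Cyr61 is also known as an immediate early gene, switched on within minutes of serum, stretch or tissue handling, and tissue digestion took 4 h here. Cells were therefore described by their Cyr61 UMIs, with a list of 20 immediate early and heat shock genes beside them. In stem-like cells with 5 or more Cyr61 UMIs (53 and 68 cells), these genes made up 3.42% and 3.41% of the UMIs outside hormone genes, against 0.464% and 0.386% in the 86 and 80 cells with 0. In somatotrope-like cells the shares were 3.14% and 2.70% with 5 or more (126 and 238 cells), against 0.692% and 0.823% with 0 (2627 and 2400 cells). Atf3, a stress-response factor, was at 1690 and 1759 CPM (of UMIs outside hormone genes) in stem-like cells with 5 or more Cyr61 UMIs, against 73.8 and 56.9 in those with 0. The cells with many Cyr61 UMIs were the ones with many immediate early UMIs in both classes and libraries.

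Yap1 in the same stem-like cells was at 83.5 and 85.4 CPM (of UMIs outside hormone genes) with 5 or more Cyr61 UMIs, against 65.0 and 69.1 with 0. Wwtr1 was at 45.2 and 67.6 with 5 or more, against 21.3 and 24.4 with 0. Tead1 was at 82.2 and 68.8, against 71.3 and 67.8. In somatotrope-like cells with 5 or more Cyr61 UMIs, there were 0 Yap1 UMIs and 0 and 1 Wwtr1 UMIs. The median depth of stem-like cells was 14060 and 12059 UMIs with 5 or more Cyr61 UMIs, against 8302 and 7841 with 0, so depth moved with the split too. In 169 and 173 stem-like cells with at most 30% Gh UMIs, 1503 and 1515 of the Cyr61 UMIs remained.

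**Figure D4:**
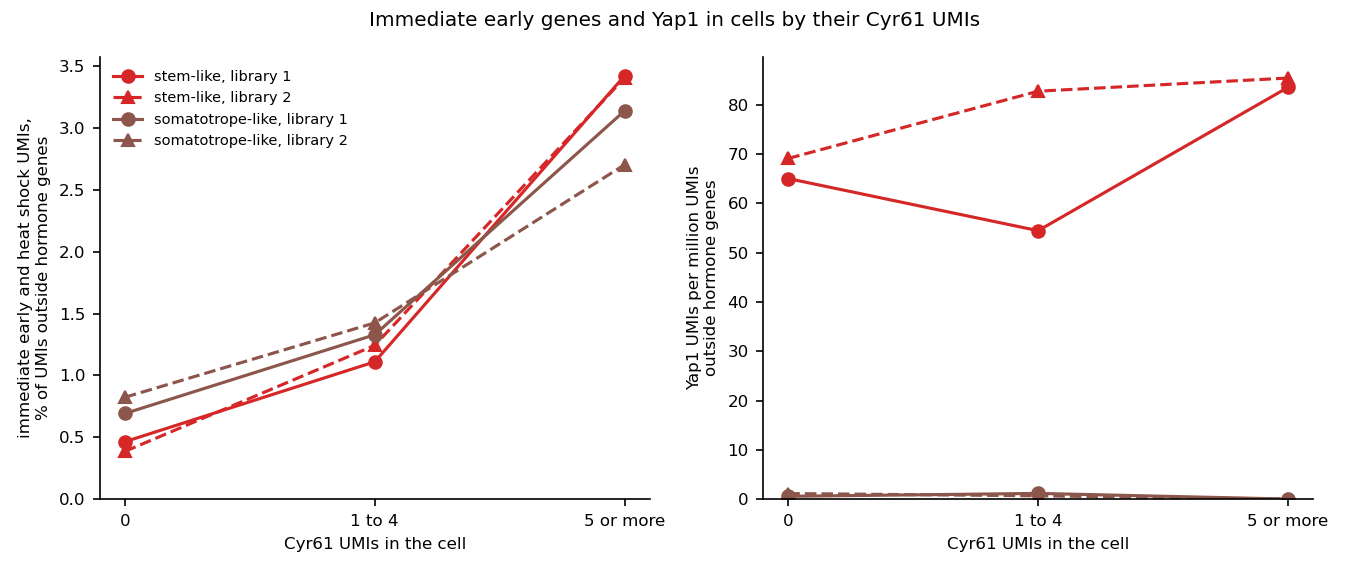
Immediate early and heat shock genes as a percentage of UMIs outside hormone genes (left) and Yap1 in CPM of the same UMIs (right) in stem-like and somatotrope-like cells with 0, 1 to 4, and 5 or more Cyr61 UMIs; solid lines are library 1, dashed lines library 2. The left values rise with Cyr61 in both classes, to between 2.70% and 3.42%. Yap1 is near 0 in somatotrope-like cells and between 54.5 and 85.4 CPM in stem-like cells. In stem-like cells it is highest with 5 or more Cyr61 UMIs in both libraries.

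Across classes, Cyr61 and the list had different orders. The summed list was at 11199 and 12209 CPM in stem-like cells and at 637 and 1038 CPM in pituicyte-like cells, which had the most Ctgf. Corticotrope-like cells, at 13950 and 15838 CPM, had more of the list than somatotrope-like cells, at 6399 and 7742 CPM. Their Cyr61 was lower in both libraries by scaled CPM. By plain UMI totals it was lower in library 2 only, as library 1 had 59.6 CPM against 53.3 CPM in somatotrope-like cells. Within the somatotrope-like class, Cyr61 had UMIs in each of 11 clusters, from 109.0 to 304 CPM of UMIs outside hormone genes. What handling contributes to the Cyr61 levels was not tested.

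The list itself had 18 of 20 genes higher and none lower in stem-like over hormone classes, where 31.4% and 26.4% of all genes were, with a median log2 fold change of 1.77, against 0.03 over all genes tested. Its named members are the Krüppel-like factors Klf2 at 3.96 ± 0.34, Klf4 at 3.28 ± 0.19 and Klf6 at 3.12 ± 0.08. Klf6 averaged 401 CPM in stem-like cells and 55.3 CPM in hormone classes. In pituicyte-like over hormone classes, 1 gene of the list was higher and 12 were lower, where 10.6% and 10.9% of all genes were.

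Further pathway genes were described by lists. Of 16 upstream regulators and junction proteins, 15 were higher and none lower in stem-like over hormone classes, where 31.4% and 26.4% of all genes were, with a median of 3.40. Amotl1, an angiomotin family member that binds YAP, was at 144 and 151 CPM in stem-like cells, with a mean of 8.80 CPM in hormone classes (4.22 ± 0.11, edgeR adjusted p = 1.5e-54). Amot, its relative, was at 102 and 97.8 CPM in stem-like cells and averaged 6.63 CPM in hormone classes (3.99 ± 0.21). It was nearly absent from pituicyte-like cells, at 5.73 and 0 CPM. Frmd6, a FERM-domain protein upstream of the kinases, was at 25.03 and 35.5 CPM in stem-like cells, with a mean of 3.19 CPM in hormone classes (3.41 ± 0.23). Scrib was the 1 gene of the list not called. In pituicyte-like over hormone classes 6 were higher and none lower, where 10.6% and 10.9% of all genes were. In endothelial-like cells 12 were higher and 2 lower, where 28.8% and 27.8% were.

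Of 11 kinase core genes and adaptors, 7 were higher and 2 lower in stem-like cells, where 31.4% and 26.4% of all genes were, with a median of 0.55. Mob1b, a LATS co-activator, was at 25.7 and 32.2 CPM in stem-like cells and averaged 10.7 CPM in hormone classes (1.47 ± 0.18). The TAO kinase genes Taok3 (-1.16 ± 0.14) and Taok2 (-0.64 ± 0.16) were lower, with means of 21.3 and 19.7 CPM in stem-like cells and of 48.6 and 31.2 CPM in hormone classes. In pituicyte-like cells edgeR called 0 of the 11, with 1 at an unadjusted p under 0.05, where it called 21.5% of all genes. Of 4 Vestigial-like cofactors, which compete with or join YAP at TEAD proteins, Vgll3 and Vgll4 were tested. Both were higher in stem-like cells, where 31.4% of all genes were. Vgll4, a TEAD-binding repressor, was at 66.8 and 65.0 CPM in stem-like cells and averaged 17.9 CPM in hormone classes (2.00 ± 0.12).

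Of 17 tested genes of an 18-gene YAP and TAZ target signature known from human cell lines and tumours, 10 were higher and 2 lower in stem-like cells, where 31.4% and 26.4% of all genes were, with a median of 2.63. The receptor kinase gene Axl was at 35.9 and 34.5 CPM in stem-like cells and averaged 0.114 CPM in hormone classes. Tgfb2, a TGF-beta ligand gene, was at 56.6 and 54.1 CPM in stem-like cells and averaged 0.289 CPM in hormone classes. The matrix protein gene Ccdc80 was at 85.3 and 74.6 CPM in stem-like cells and averaged 2.12 CPM in hormone classes. Gadd45a (-1.47 ± 0.18), a growth arrest gene, and Asap1 (-0.39 ± 0.14), an Arf GTPase regulator, were lower. Over the hormone classes, 9 were higher and 0 lower in pituicyte-like cells, where 10.6% and 10.9% of all genes were. In endothelial-like cells 8 were higher and 1 lower, where 28.8% and 27.8% were, and in fibroblast-like cells 13 and 0, where 20.1% and 17.1% were. Somatotrope-like cells, the hormone class with Cyr61, had 6 of 17 higher and 4 lower than the other hormone classes, near the 26.0% and 19.4% of all genes (45.4% in either direction), with a median of 0.05, against 0.07 over all genes. Of 4 other CCN family genes, relatives of Ctgf and Cyr61, 2 were tested. Wisp1 was higher (1.85 ± 0.70) and Nov lower (-1.95 ± 0.78) in stem-like cells, where 31.4% and 26.4% of all genes were.

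Among 8677 genes with at least 20 CPM in some class, those most like each gene over the 11 classes, by Pearson's r of log2(CPM + 1), were as follows. For Yap1 they were Trip6 (0.98), Tcea3 (0.98) and Amotl1 (0.97), all highest in stem-like cells. For Wwtr1 they were S100a16 (0.94), Cdc42ep1 (0.94) and Aplp2 (0.92), all highest in endothelial-like cells. For Ctgf they were Ephb4 (0.95), Sntb2 (0.95) and Dennd5a (0.94), highest in endothelial-like cells, and for Cyr61 Pdlim7 (0.92), highest in stem-like cells, and Lifr (0.92) and Nid2 (0.89), highest in endothelial-like cells. The 4 genes had no neighbour in common among these.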

How the data were processed

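The deposited matrix holds raw UMI counts per gene and barcode. For these the submitters' processing notes name Cell Ranger, STAR and the mm10 build. Their versions are not known here. The number ending each barcode was taken as the pool. Barcodes with at least 500 UMIs, 250 genes and at most 20% mitochondrial UMIs were kept. Scrublet called 1 and 193 cells by its own threshold, too few in library 1, so the 7.6% with the highest scores (the multiplet rate per the labels) were removed, 494 and 537. Cells were clustered on 104 markers (12 principal components, 15 neighbours, Leiden resolution 1, scanpy 1.11.5), which include none of the 10 genes, giving 31 clusters, and named from at least 3 markers. There were 3 unnamed clusters (384 cells) and a thyrotrope-like class (10 and 33 cells), which entered no comparison. The limits for mixed Gh clusters were set after the data were seen.

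Counts were summed per class and library, for classes of at least 20 cells per library, and fitted with edgeR 4.0.16 (quasi-likelihood, robust, TMM, filterByExpr, library as a block; 22 columns, 10 residual degrees of freedom, 96 markers left out), with DESeq2 1.42.0 as an alternative. The fits were tested on simulated data. The block pairs classes from the same glands. CPM are scaled by TMM factors. A value from 1 library alone uses the scaling and dispersion of both and has no test. The p-values rest on the spread left between the 2 sums of a class after the block takes out the mean difference between pools. This spread is estimated jointly over all classes. It does not measure the spread between animals. Members, lists and tests were chosen with earlier results of these data known. Named were all members, per list the 3 called genes with the largest change in stem-like cells at 20 CPM or more, and the 3 nearest genes; Scrib, Gadd45a, Asap1, Vgll3, Nov, Wisp1 and Atf3 were named after their values were seen. Gene positions are from GENCODE and promoters from RefSeq.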

Additional observations from a re-analysis of the deposited data

Results flagged for a closer look

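Cells outside the comparisons also held UMIs of these genes, above the 3 UMIs that a count of 0 allows. In the thyrotrope-like cells, 10 and 33 in libraries 1 and 2, there were 7 Tead1 and 5 Lats1 UMIs. In the 384 cells of the 3 unnamed clusters there were 4 Yap1, 92 Tead1, 40 Lats1 and 157 Cyr61 UMIs.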

How the results depend on the processing

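Of 59 called fold changes in 14 comparisons, 0 of 759 values under the alternatives had the opposite sign, and 12 lost their call. The 759 include values from each library alone, which have no test and so could not lose a call. With correlations counted in, 25 values from library 1 alone moved beyond their spread and 38 did not. From library 2 alone, 18 moved and 45 did not. The spread is the SE of a fold change and, for a correlation, the SD over libraries. The count of genes called differed by more than 1.5 times in 4 comparisons. In macrophage-like over hormone classes it was 2, against 4 with DESeq2. In cycling over hormone classes it was 0, against 1 with DESeq2, 1 without the replicate block, 1 when clustered on variable genes and 3 with doublet calls kept. In gonadotrope-like over the other hormone classes it was 0, against 3 at Leiden resolution 2, and in melanotrope-like cells 2, against 4 with DESeq2. The cause was not tested. Beside the cycling class, leaving out the replicate block, which pairs classes of the same glands, left every count within 1.5 times. All 10 genes had their highest mean in a non-hormone class, and 9 did in library 1 alone. The r of Cyr61 with Yap1 was 0.71 with doublet calls kept. Leaving out pituicyte-like cells or adding thyrotrope-like cells, both chosen after seeing the data, left every count of calls within 1.5 times. The median log2 fold change of all genes was -0.26 in pituicyte-like, -0.17 in macrophage-like and -0.12 in fibroblast-like over hormone classes, and 0.25 in stem-like over pituicyte-like cells. With 2 libraries and 15 to 40 UMIs of Yap1 in pituicyte-like, fibroblast-like and endothelial-like cells, counting error limits these values.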
